A study of Mus musculus with 2 samples.

Results

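The RNAs of the mouse mitochondrial genome were followed together with 4 pseudogenes of chromosome 1 that carry mitochondrial sequence. The members are the 37 genes whose GENCODE symbol starts with mt-, namely 2 rRNA, 22 tRNA and 13 protein-coding genes, and the pseudogenes Gm10222, Gm29216, Gm28661 and Gm28437. These 41 genes stand among 69691 rows of the gene tables, of which 43346 are Ensembl genes. The 4 pseudogenes were chosen by their high TPM in these same libraries, so their levels are given as a description. TPM, is a relative abundance corrected for gene length. The data are 2 total RNA-seq libraries of primary cells labelled megakaryocyte progenitor (CFU-Meg, the colony-forming precursor of platelet-producing cells), taken from adult male C57BL/6J mice aged 5 to 6 weeks. Each library was made from 1 ng of RNA, with no treatment or contrast in the labels. The protocol that isolated the cells is only linked from the labels and was not used here. The labels give a single donor identifier for both biosamples. The difference between the libraries may therefore be technical, and no test between conditions was possible. Values are given for replicate 1 and then replicate 2, with mean ± SD (n = 2) where stated.

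The mitochondrial genome is copied into long RNAs that span many genes, from both of its strands. Most of its protein genes and the rRNA genes are punctuated by tRNA genes, and cutting out the tRNAs releases the rRNAs and mRNAs. The rRNAs build the ribosome of the organelle, and the mRNAs encode core subunits of the respiratory chain and of ATP synthase. Pieces of mitochondrial DNA have also entered the nuclear chromosomes, where they are annotated as pseudogenes.

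Expected counts, the estimated reads per gene, totalled 82746658 and 75652762. Of 10 megakaryocyte markers, 2 reached 1 TPM in both libraries, Itga2b at 2.63 and 2.18 TPM and Vwf at 1.01 and 1.07 TPM, and Tubb1 was at 0 in both. Their summed level was 11.2 and 6.80 TPM, against 16762 and 17720 TPM for 9 granulocyte markers, all of which reached 1 TPM. The markers therefore go against the label, which is used here only as a name. Summed monocyte markers stood at 2846 and 3231 TPM, with 4 of 4 at 1 TPM or more in both. Summed erythroid markers stood at 546 and 294 TPM, with 6 of 7. Each sum was mostly 1 gene, Ly6c2 at 2767 and 3120 TPM and Car1 at 512 and 242 TPM. The median was 32.3 and 45.8 TPM for the monocyte markers and 6.87 and 5.1 TPM for the erythroid markers. No T and NK cell marker reached 1 TPM, with Cd3e and Cd3g at 0, and of the stroma and endothelium markers Pecam1 did so while Cdh5 and Col1a1 were at 0. Which cell types were present, and their part in the mitochondrial values, was not tested. In bulk RNA, fewer cells of a type and less RNA per cell cannot be told apart.

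The sequences of the copies came first, because they decide how the read values can be read. Gm10222 (ENSMUSG00000067736.2, 294 bases) has the same sequence as all but the end of mt-Nd4l (ENSMUSG00000065947.3, 297 bases), the mitochondrial gene of a small complex I subunit. Both are shown 5′ to 3′ on their own strand, plus for chrM:9877-10173 and minus for chr1:24612407-24612700. They are taken from GENCODE M21 transcripts on GRCm38, and capitals mark the bases that Gm10222 lacks.
mt-Nd4l: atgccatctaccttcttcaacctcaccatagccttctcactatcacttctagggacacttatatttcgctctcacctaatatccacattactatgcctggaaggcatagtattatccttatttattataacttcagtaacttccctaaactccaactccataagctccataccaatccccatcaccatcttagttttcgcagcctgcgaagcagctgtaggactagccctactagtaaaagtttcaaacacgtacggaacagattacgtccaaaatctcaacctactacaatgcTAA
Gm10222: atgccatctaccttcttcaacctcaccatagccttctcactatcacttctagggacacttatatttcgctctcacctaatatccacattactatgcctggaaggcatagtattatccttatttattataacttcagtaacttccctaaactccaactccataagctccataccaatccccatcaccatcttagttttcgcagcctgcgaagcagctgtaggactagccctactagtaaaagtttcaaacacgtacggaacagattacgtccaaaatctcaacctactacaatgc
All 294 bases of Gm10222 matched bases 1 to 294 of mt-Nd4l with 0 mismatches, so the genes differ by the 3 capital bases alone.

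The other copies repeated this pattern in varied degree. Gm28661 (681 bases) matched bases 1 to 681 of the 684 of mt-Co2, Gm28437 (783 bases) matched bases 1 to 783 of the 784 of mt-Co3, both with 0 mismatches. Their ends are shown with the bases missing from the copy in capitals, from plus strand chrM:7667-7696 and chrM:9361-9390 and minus strand chr1:24614885-24614911 and chr1:24613189-24613217.
mt-Co2 end: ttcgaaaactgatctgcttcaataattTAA
Gm28661 end: ttcgaaaactgatctgcttcaataatt
mt-Co3 end: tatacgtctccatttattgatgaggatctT
Gm28437 end: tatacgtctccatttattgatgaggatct
Gm29216 (492 bases) covers only the last stretch of mt-Co1, bases 1054 to 1545, and matched 486 of 492 bases (98.8%). Its start is shown beside the same stretch of mt-Co1, from minus strand chr1:24616165-24616197 and plus strand chrM:6381-6413, with the differing bases in capitals.
Gm29216 start: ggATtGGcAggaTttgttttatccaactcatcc
mt-Co1 match: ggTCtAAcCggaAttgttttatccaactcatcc
Counted from the first base of mt-Co1, the 6 differences are T1056A, C1057T, A1059G, A1060G, C1062A and A1066T, and all lie in the first 13 bases of the copy.

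The 4 copies sit within a block of 7 annotated pseudogenes on the minus strand of chromosome 1, which spans 4663 bases from 24611535 to 24616197. The remaining 3 are Gm10925, equal to 678 of the 681 bases of mt-Atp6, Gm28439, equal to the first 876 bases of mt-Nd4, and Gm28438, which matched 344 of 345 bases of mt-Nd3 with the substitution T3C counted from the first base of mt-Nd3. Along the block the genes keep the order and spacing of the mitochondrial genome, with 0 bases of difference from Gm29216 to Gm28438 and 1 base from Gm10222 onward. The block holds no annotated copy of mt-Atp8, although that gene lies between mt-Co2 and mt-Atp6.

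**Figure D1:**
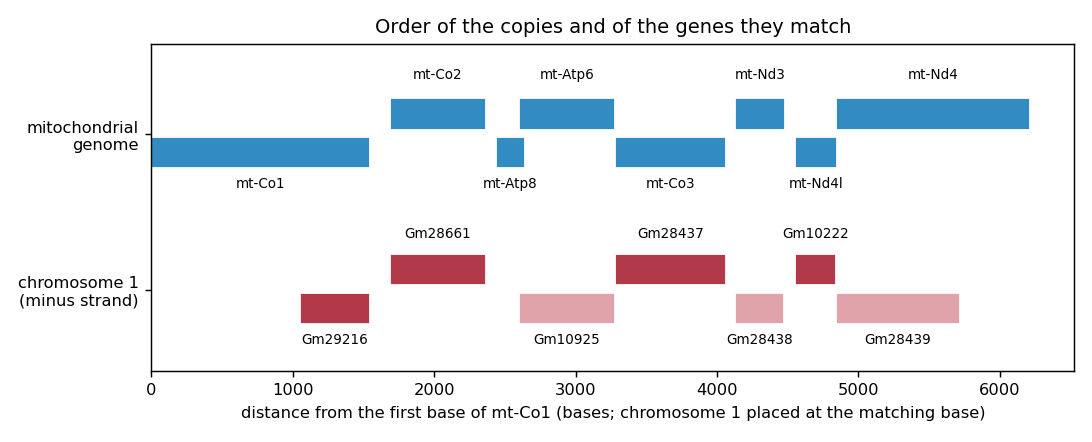
The horizontal axis gives the distance in bases from the first base of mt-Co1, with the chromosome 1 block placed at its matching base. Blue bars are mitochondrial genes, dark red bars the 4 pseudogenes chosen here and pale bars the 3 others of the block, and each copy lies under the gene it matches, with Gm29216 covering only the end of mt-Co1.

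How many stretches could tell a copy from its mitochondrial gene was counted in windows of 100 bases. Of 393 windows of Gm29216, 13 were absent from the mitochondrial transcripts, and of the windows of Gm10222, Gm28661 and Gm28437 0 were. In the 4 copies together, 13 of 1854 windows were absent from the mitochondrial transcripts. The count was also 13 with windows of 50, 75 or 150 bases. That follows from the sequence, since every difference lies in the first 13 bases of Gm29216, and is no separate check. In the reverse direction mt-Nd4l had 3 of 198 windows that its copy lacks, mt-Co2 3 of 585, mt-Co3 1 of 685 and mt-Co1 1066 of 1446. A read inside the shared windows fits both loci equally. For mt-Nd4l, mt-Co2, mt-Co3 and their copies nearly every window is shared, so their values depend on how such reads were divided. Of the windows of mt-Co1, 69.2% occurred in no annotated nuclear transcript at 100 bases, and 48.9% at 50 bases. No 100-base window of mt-Rnr1, mt-Rnr2, mt-Nd1, mt-Nd5, mt-Nd6, mt-Cytb or mt-Atp8 occurred in an annotated nuclear transcript. With windows of 50 bases, 135 of 1775 of mt-Nd5 and 16 of 1533 of mt-Rnr2 did, and none of the others.

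Mitochondrial genes took 26.8% and 28.8% of all expected counts, 27.8% ± 1.5 (n = 2). The exact 95% Clopper-Pearson intervals were 26.76% to 26.78% and 28.82% to 28.84%, which cover counting error only. The rRNA genes held 21.8% and 23.4% of all counts, the 13 protein-coding genes 4.97% and 5.40%, and the 4 copies 0.608% and 0.631%. Gm42418, annotated as a lincRNA on chromosome 17 but treated here as an rRNA-like row, held 23.4% and 20.8%. Its sequence was not compared with rRNA here, so its level is not read as that of a lincRNA. The library with the higher mitochondrial share had the lower share of Gm42418. The part of Gm42418 in that difference was not tested.

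**Figure D2:**
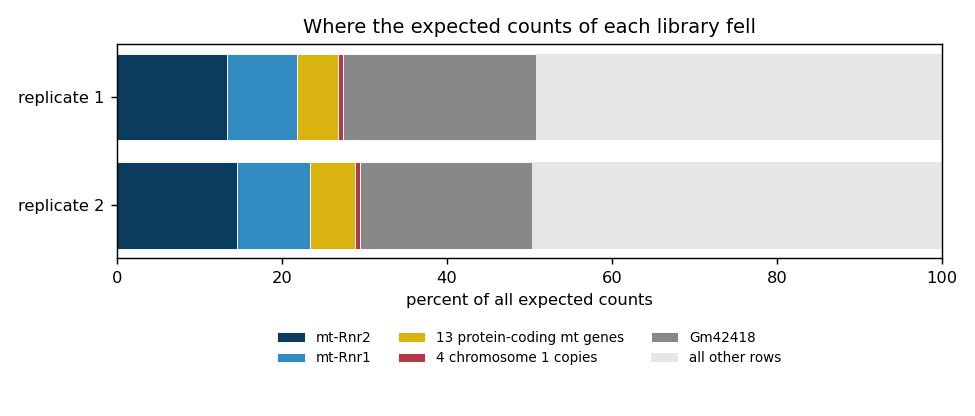
Each horizontal bar is 1 library, and the axis gives the percent of all expected counts held by mt-Rnr2, mt-Rnr1, the 13 protein-coding genes, the 4 chromosome 1 copies, Gm42418 and all other rows. The mitochondrial segments together reach 26.8% in replicate 1 and 28.8% in replicate 2, and the 4 copies form a thin band of 0.608% and 0.631%.

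The rRNAs of the mitochondrial ribosome made up most of the mitochondrial reads, 81.4% and 81.3%. mt-Rnr1 (ENSMUSG00000064337.1, chrM:70-1024, plus strand), the rRNA of the small subunit, stood at 137828 and 142027 TPM. mt-Rnr2 (ENSMUSG00000064339.1, chrM:1094-2675, plus strand), the rRNA of the large subunit, stood at 123185 and 132182 TPM. They ranked 2 and 3 among Ensembl genes by TPM in both libraries, behind Gm42418. By counts the longer mt-Rnr2 held the larger part, 61.2% and 62.2% of rRNA counts, while by TPM mt-Rnr1 was 1.12 and 1.07 times as high as mt-Rnr2. Per full length in place of effective length, which subtracts the reach of a fragment, that ratio was 1.05 and 1.01, so the subunits differed little. The mean of the rRNAs was 19.6 and 20.9 times the median level of the protein-coding genes, each summed with its copy.

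The 22 tRNA genes, whose products bring amino acids to the mitochondrial ribosome, had no reads in these tables. Each had an expected count of 0 and a TPM of 0 in both libraries, on the 14 plus-strand and the 8 minus-strand genes alike. Their lengths run from 59 to 75 bases with a median of 68.5. The shortest and the longest are printed to show how small these genes are, from plus strand chrM:11613-11671 and chrM:2676-2750.
mt-Ts2: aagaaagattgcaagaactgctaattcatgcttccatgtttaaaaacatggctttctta
mt-Tl1: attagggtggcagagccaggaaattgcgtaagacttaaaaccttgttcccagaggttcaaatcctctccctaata
The deposited effective length of all 22 was 0, and the shortest Ensembl gene with an effective length above 0 had 90 and 89 bases. Of 1669 and 1633 Ensembl genes with an effective length of 0, 9 and 11 had any expected count above 0. The values of 0 are therefore not a measurement of tRNA abundance, and no upper limit is given for them.

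The protein-coding genes are ordered here by complex. Complex I, the entry point of electrons from NADH, has 7 mitochondrial subunits. In the deposited TPM mt-Nd4 stood at 7160 and 7227, mt-Nd5 at 6656 and 6762, and mt-Nd1 at 5767 and 6256. mt-Nd2 stood at 4666 and 4565 TPM, mt-Nd6 at 4264 and 4388, mt-Nd3 at 601 and 681, and mt-Nd4l at 148 and 160. Within 1 complex the deposited levels thus spanned the range from 7227 down to 148 TPM. When the reads of Gm10222 were added to mt-Nd4l before division by its effective length, the level was 6685 and 6555 TPM, between those of mt-Nd5 and mt-Nd1 in the mean. mt-Nd3 stayed low with its copy Gm28438 added, at 601 and 745 TPM, which was 8.99% and 11.4% of the summed mt-Nd4l level.

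Complex III has 1 mitochondrial gene, mt-Cytb, the cytochrome that passes electrons on from ubiquinol, at 7144 and 7402 TPM. Complex IV, which reduces oxygen, has the catalytic core subunits mt-Co1 and mt-Co2 and the subunit mt-Co3. Their deposited levels were 12565 and 14123 TPM for mt-Co1, 1355 and 1800 for mt-Co2, and 1511 and 2256 for mt-Co3. With the copies added, mt-Co1 stood at 14050 and 15730 TPM, mt-Co2 at 5884 and 6286, and mt-Co3 at 5397 and 6139. The summed levels of mt-Co2 and mt-Co3 overlapped between the libraries, and mt-Co1 lay above both in each library.

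Complex V, the ATP synthase, has mt-Atp6 of the proton channel at 13698 and 14650 TPM and the short subunit gene mt-Atp8 at 20430 and 20992 TPM. These genes share 43 bases at chrM:7927-7969, shown in capitals within the plus strand of chrM:7912-7984, as an example of how closely the genes are packed.
mt-Atp8 and mt-Atp6: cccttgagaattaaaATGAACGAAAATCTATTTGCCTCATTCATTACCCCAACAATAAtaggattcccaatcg
mt-Nd4l and mt-Nd4 share 7 bases at chrM:10167-10173, shown within chrM:10152-10188.
mt-Nd4l and mt-Nd4: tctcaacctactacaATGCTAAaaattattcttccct
The tables held no trace of reads divided between mt-Atp8 and mt-Atp6, since mt-Atp8 had whole expected counts of 88556 and 87589 and a posterior SD of 0 in both libraries. By TPM mt-Atp8 was the highest protein-coding gene, 1.46 and 1.41 times the summed mt-Atp6 level. Its length is 204 bases and its effective length 69.75 and 72.39. Per kilobase of full length, with copies added, mt-Co1 was highest instead at 794671 and 827173 expected counts, then mt-Atp6 at 694207 and 689028, then mt-Atp8 at 434098 and 429358. The place of mt-Atp8 at the top therefore rests on the length used, and on the same scale mt-Nd4l had rank 11 of 13 in both libraries.

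**Figure D3:**
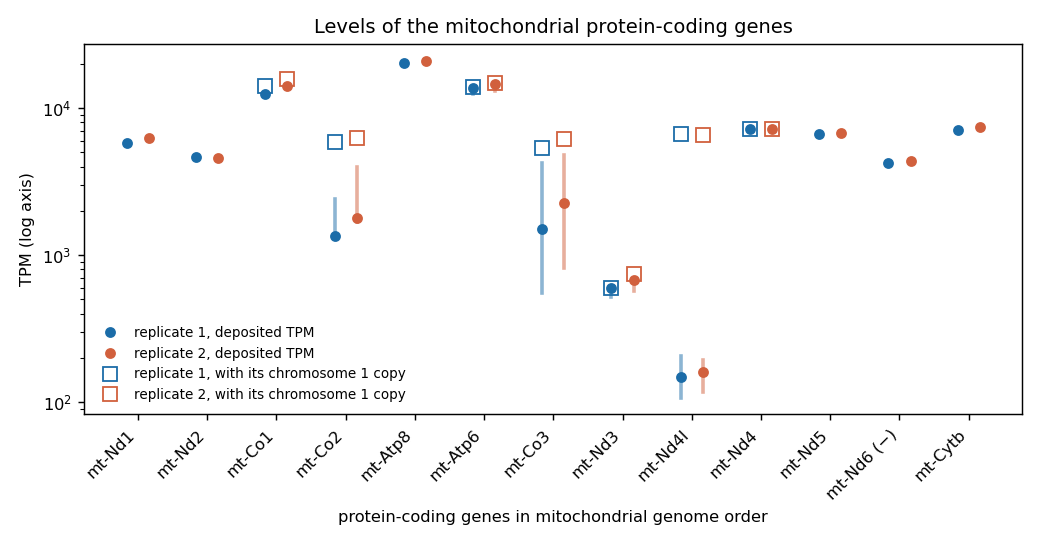
The vertical log axis gives TPM for the 13 protein-coding genes in genome order, with filled circles for the deposited value of each library, vertical lines for the authors' credibility interval and open squares for the gene summed with its chromosome 1 copy. mt-Nd4l moves from 148 and 160 TPM to 6685 and 6555 TPM when its copy is added, whereas mt-Nd3 stays at 601 and 745 TPM with its copy.

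Counted with its copies the order by mean TPM was mt-Atp8, mt-Co1, mt-Atp6, mt-Cytb, mt-Nd4, mt-Nd5, mt-Nd4l, mt-Co2, mt-Nd1, mt-Co3, mt-Nd2, mt-Nd6 and mt-Nd3. Neighbours whose library values overlapped were mt-Co1 with mt-Atp6, mt-Cytb with mt-Nd4, mt-Nd5 with mt-Nd4l, mt-Co2 with mt-Nd1, and mt-Nd1 with mt-Co3, so their order is not resolved by 2 libraries. The highest gene was 138 and 131 times the lowest in the deposited TPM, and 34.0 and 30.8 times after the 4 copies were added. In both cases the lowest gene belonged to complex I, mt-Nd4l before the addition and mt-Nd3 after it.

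mt-Nd6 (chrM:13552-14070) is the protein-coding gene of the minus strand, and the other 12 lie on the plus strand. Its level of 4326 ± 88 TPM (n = 2) was 0.69 and 0.67 times the median of the 12 others, and 0.64 and 0.66 times once their copies were added. It shares 14 bases with mt-Nd5 on the opposite strand, and the sources used here do not say whether counting used the strand. If it did not, reads of plus-strand RNA over the whole gene would also count as mt-Nd6. The ratio is therefore not read as the level of the minus-strand RNA alone, and the part of the plus strand was not tested. At this depth mt-Nd6 rested on 100745 and 97011 reads, so counting error is small beside the difference between the libraries.

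The division of reads between each copy and its mitochondrial gene differed from pair to pair. Gm10222 held 97.8% and 97.6% of the counts of its pair with mt-Nd4l. Gm28661 held 77.0% and 71.4% of its pair with mt-Co2, and Gm28437 held 72.0% and 63.3% of its pair with mt-Co3. Gm29216, which covers 31.8% of mt-Co1, held 10.6% and 10.2% of that pair. Gm10222 stood at 45.02 and 40.63 times the TPM of mt-Nd4l, and at 42.9 and 41.6 times by posterior mean TPM. Gm28661 stood at 3.36 and 2.51 times the TPM of mt-Co2, or 2.47 and 1.73 times by posterior means, and their credibility intervals overlapped in replicate 2. Gm28437 stood at 2.58 and 1.72 times the TPM of mt-Co3, or 1.49 and 1.46 times by posterior means, and their intervals overlapped in both libraries, so equal parts are not set apart from these values. Gm29216 stood at 0.47 and 0.45 times the TPM of mt-Co1 by either estimate.

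The levels that chose the 4 copies were 6661 and 6514 TPM for Gm10222, 5911 and 6354 for Gm29216, 4554 and 4511 for Gm28661, and 3892 and 3890 for Gm28437. Just outside were Gm10925 at 335 and 274 TPM, Gm28438 at 0 and 65.4, and Gm28439 at 7.46 and 4.83. Of its pair with mt-Atp6, Gm10925 held 2.37% and 1.83% by expected counts and 5.44% and 4.99% by posterior mean counts. Its 335 TPM in replicate 1 lies below its own interval of 361 to 1327 TPM. Gm28438 held 0% and 8.65% of its pair with mt-Nd3, or 3.93% and 13.3% by posterior means, and Gm28439 held 0.062% and 0.040% of its pair with mt-Nd4. These parts follow the choice of the members by TPM and are given as a description.

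**Figure D4:**
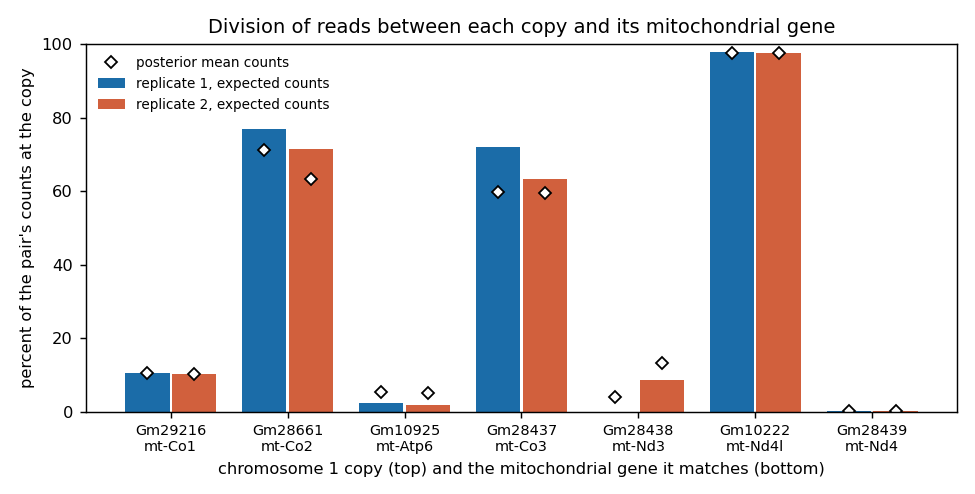
Bars give the percent of each pair's expected counts that fell on the copy in replicates 1 and 2, and diamonds give the same from the authors' posterior mean counts. The bars of Gm10222 reach 97.8% and 97.6%, those of Gm28661 and Gm28437 lie between 63.3% and 77.0%, and the diamonds of Gm28437 lie at 59.8% and 59.4%, under its bars.

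The authors' posterior SD of the count, a measure of how uncertain the division is, was the same in both members of each of the 7 pairs, within 0.027%. It was 54544 and 56878 reads for Gm28437 and mt-Co3, 13240 and 21308 for Gm28661 and mt-Co2, and 10419 and 12788 for Gm10925 and mt-Atp6. These 6 genes had the highest posterior SDs of the Ensembl genes in both libraries. The SD was 262 and 189 reads for Gm10222 and mt-Nd4l and 450 and 440 for Gm29216 and mt-Co1. The 8 rRNA and protein-coding genes with no copy in the block had at most 0.32 reads. The credibility interval of Gm28437 ran from 1100 to 4766 TPM in replicate 1 and from 1251 to 5218 in replicate 2, and that of mt-Co3 from 555 to 4214 and from 821 to 4781. For Gm10222 it ran from 6473 to 6616 and from 6342 to 6471 TPM.

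The sums of the pairs were whole numbers of reads where the single values were not. In 5 of 7 pairs the summed expected count was whole within 0.02 in both libraries, such as 65977 and 61220 for Gm10222 and mt-Nd4l, 216387 and 229493 for Gm28437 and mt-Co3, and 472755 and 469228 for Gm10925 and mt-Atp6. The pairs of mt-Co1 and mt-Co2 were not whole. With the chromosome 2 pseudogenes Gm13340 and Gm13341 added, they came to 1228012 and 1278348 for mt-Co1 and to 199361 and 198773 for mt-Co2, whole within 0.02 as well. The fractions of reads thus lay in the split between the loci, and the sums over the loci held none.

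Between the libraries no member passed a 2-fold difference. Of 41 members, 19 had a mean TPM of 1 or more and could be compared, and the 22 tRNA genes could not. In this comparison 5.57% of all Ensembl genes tested passed 2-fold, 654 of 11748, and 0 of the 19 members did. The deposited intervals did not overlap for 12 of 19 members, against 46.9% of all genes tested. Replicate 2 was the higher for 10 of them, against 19.4% of all genes, and replicate 1 for mt-Nd2 and Gm10222, against 27.5% of all genes. Among genes with a mean expected count of 10000 or more the intervals did not overlap for 12 of 17 members and 68.2% of all genes, a like share. By direction, replicate 2 was higher for 10 of those 17, against 38.7% of these genes, and replicate 1 for 2, against 29.4%.

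In the members the differences were mostly toward replicate 2. The median log2 ratio of TPM, replicate 2 over replicate 1, was 0.05 in the 19 members and -0.04 over all genes tested. Of the members 15 of 19 were higher in replicate 2. The share of all genes above 0 was not counted, so this count has no background beside it. The members are not independent, since each copy shares reads with its mitochondrial gene. A mean expected count of 10000 or more was reached by 741 of the 11748 genes tested and by 17 of the 19 members. The median over all genes is thus mostly that of genes with fewer reads. Among the 741 genes, intervals that did not overlap were also more often higher in replicate 2, 38.7% against 29.4%. The direction is therefore not read as particular to the members. The count of members above 0 moved with the scaling, to 19 of 19 with TMM library sizes and 18 of 19 with CPM, where the median of all genes moved to 0.01 and -0.01. Each of the 19 lay above the median of all genes under TPM, TMM and CPM, and 18 did with posterior mean TPM. The largest member ratios belonged to mt-Co3 at 0.58 and mt-Co2 at 0.41, and with the copies added these ratios were 0.19 and 0.10. For mt-Nd3 the ratio was 0.18 alone and 0.31 with Gm28438, since that copy received 0 reads in replicate 1 and 791 in replicate 2. On the TPM scale the copies lay between -0.03 for Gm10222 and 0.10 for Gm29216.

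**Figure D5:**
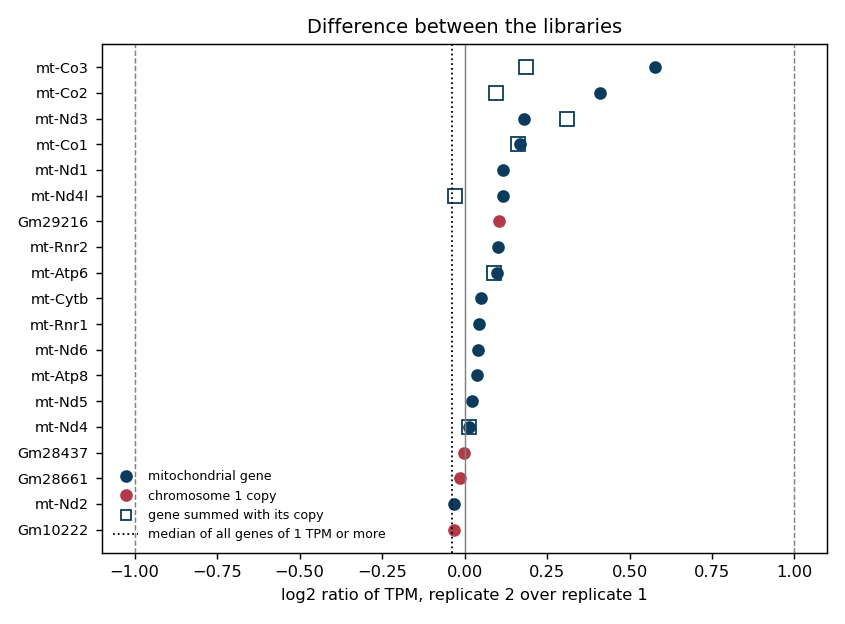
The horizontal axis gives the log2 ratio of TPM, replicate 2 over replicate 1, for the 19 members with a mean TPM of 1 or more, with filled circles for mitochondrial genes and copies, open squares for genes summed with their copy, dashed lines at 2-fold and a dotted line at the median of all genes of -0.04. mt-Co3 lies at 0.58 alone and at 0.19 with its copy, and no member reaches the dashed lines.

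Nuclear genes that make, cut, modify, keep or degrade mitochondrial RNA, or copy the mitochondrial genome, were read from a list of 59, of which 58 were found. All 58 reached 1 TPM in both libraries, against 25.6% of all Ensembl genes, which include many silent genes. Their median level was 12.1 and 12.2 TPM, far under that of the mitochondrial RNAs themselves. None passed 2-fold between the libraries, where 5.57% of all genes tested did. The median log2 ratio was -0.06, near the -0.04 of all genes tested. The interval of replicate 1 lay above that of replicate 2 for 20 of 58 (34.5%) and below it for 3 (5.17%), Tbrg4, Mrpl12 and Polrmt, where 27.5% and 19.4% of all genes tested did so.

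Among transcription genes Mrpl12, a ribosomal protein of the organelle, stood at 47.1 ± 4.4 TPM, Mterf3 at 35.3 ± 0.7 and Tfam, which packages the mitochondrial DNA and starts its transcription, at 27.1 ± 1.5 (n = 2 each). Of the enzymes that cut tRNAs out, the RNase P subunits Hsd17b10 and Trmt10c stood at 51.4 ± 8.1 and 15.1 ± 0.6 TPM, and Elac2, which cuts the other end, at 7.26 ± 0.68. RNA stability genes were led by Slirp at 44.9 ± 2.9 TPM, Fastkd2 at 37.5 ± 1.9 and Ptcd3 at 34.8 ± 0.2. The decay genes Rexo2, Pnpt1 and Supv3l1 stood at 46.0 ± 4.4, 28.9 ± 0.1 and 17.7 ± 2.6 TPM.

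The rRNA modification group was the lowest by median, at 5.68 ± 0.74 TPM, and was led by Trmt2b at 12.8 ± 1.0 TPM, Tfb1m, which methylates the small rRNA, at 10.1 ± 0.1 and Mrm3 at 7.81 ± 1.32. In the tRNA modification group Nsun3 stood at 33.4 ± 1.6 TPM, Trnt1, which adds the end bases of tRNAs, at 26.0 ± 0.4 and Mto1 at 23.4 ± 5.7. Genome copying was led by Ssbp1, the single-stranded DNA binding protein, at 68.4 ± 7.7 TPM, with the nucleoside kinase Dguok at 17.985 ± 2.8 and the polymerase Polg at 12.5 ± 0.4. Transcription genes had a positive median log2 ratio of 0.18 between the libraries, and the other 6 groups had negative medians from -0.24 to -0.08.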

How the data were processed

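Total RNA was sequenced in 2 libraries, replicates 1 and 2 of 1 group. The deposited file lists name build mm10 and annotation GENCODE M4. The aligner, quantifier version, read length and strand setting do not appear in the labels or headers. Expected counts, named so in the file headers, are taken here as the authors' estimates of reads per gene. That a read fitting several genes is split between them is inferred from the fractional values, not stated in the headers. TPM was scaled by the authors to a fixed total after division by effective length, so a change in abundant RNA moves every other value. FPKM, also deposited, divides by effective length and library size. The deposited score columns hold posterior means, posterior SDs and credibility bounds, with no stated credibility level. The TPM lies above its upper bound in both libraries for 13 of 19 members, since the bounds belong to the posterior mean.

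Symbols, positions and sequences came from GENCODE M21 on GRCm38, which matched 42462 of 43346 Ensembl rows, and the lengths of all 44 mitochondrial and block genes. No genome sequence was used, so windows were compared with the 37 mitochondrial transcripts and all annotated transcripts. Pair levels are the summed expected counts divided by the effective length of the mitochondrial gene and scaled as TPM. Log2 ratios used TPM plus 0.1 and a mean TPM of 1 or more. Expected counts were rounded for TMM (edgeR 4.0.16) and median-of-ratios factors (DESeq2 1.42.0) in R 4.3.3. TMM used 14304 genes after filterByExpr, and the median-of-ratios factors were computed without that filter. Other steps ran in Python 3.11.15, and the ratio and window steps were tested on simulated data. Depth was 82746658 and 75652762 expected counts, and intervals cover counting error only, since PCR copies are not independent molecules.

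The members and lists were chosen with earlier results of these data known. Named genes are the members, the other genes of the chromosome 1 block, their chromosome 2 relatives, Gm42418, and the 3 highest genes of each role in the nuclear list. The block and chromosome 2 genes, and 3 genes named by their intervals, were chosen after their values were seen. Prorp was not matched.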

Additional observations from a re-analysis of the deposited data

How the results depend on the processing

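With 1 group there was no test, so alternatives are compared by value. No paired analysis was possible because the libraries form 1 group and no groups share replicate numbers. Leaving out each library in turn gave 26.8% to 28.8% for the mitochondrial share, 81.3% to 81.4% for the rRNA share, 131 to 138 for the highest over the lowest protein-coding gene, 0.67 to 0.69 for mt-Nd6 over the other strand, 27.0% to 29.5% for the share of the 4 pairs at the copies and 12.1 to 12.2 TPM for the nuclear list. In all, 33 alternatives stayed within the spread between the libraries, or within 1.5 times for counts, and 15 moved further. The 33 include the values with 1 library left out, which lie within that spread by construction. They also include leaving out the tRNA genes and keeping only nuclear genes of 1 TPM or more, which removed no reads and no genes. The tally is therefore not a measure of how robust the results are. The mitochondrial share of 27.8% became 35.7% without Gm42418 and 35.6% as summed TPM. The rRNA share of 81.4% became 79.6% with the 4 copies and 75.1% as TPM. The ratio of 134.5 between the highest and lowest gene became 32.4 with the 4 copies, 31.1 with all 7, 145.9 per full length, 33.4 per full length with all 7, and 22.1 among genes of 300 bases or more. mt-Nd6 over the median moved from 0.68 to 0.56 per full length and 0.65 with the 4 copies. The copies held 28.2% of the reads of their 4 pairs, 55.6% by TPM, 26.4% by posterior means and 18.2% over all 7 pairs. The nuclear median moved from 12.155 to 12.0025 TPM with posterior means. Members past 2-fold stayed at 0 in each of the 7 alternatives run, non-overlapping intervals fell to 10 with FPKM, and the copies' own windows to 9 with 1 mismatch allowed. The share of all genes with non-overlapping FPKM intervals was not counted, so that fall is not read as particular to the members. The alternatives with all 7 block genes were chosen after seeing the data. The causes of these shifts were not tested, beyond what each alternative changes by its construction. Counting intervals are narrow at this depth, and for the pairs of mt-Co3, mt-Co2 and mt-Atp6 the authors' posterior SD is wider.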

Other observations

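Mitochondrial sequence on other chromosomes took far fewer reads than the chromosome 1 block as a whole, which was carried mostly by the copies chosen for high TPM. Within the block, Gm28438 at 0 and 791 and Gm28439 at 342 and 206 expected counts were in the range of Gm13340. On chromosome 2, Gm13340, which shares 80 windows of 100 bases with mt-Co1, had expected counts of 245 and 366. Gm13341 shares 88 such windows with mt-Co2 and had 22.8 and 20.6, and Gm13339 shares 30 with mt-Nd2 and had 0 and 1.06. The chromosome 2 copies did not follow their mitochondrial genes in common. Gm13340 and mt-Co1, at 1098029 and 1147405, were both higher in replicate 2. Gm13341 was lower in replicate 2 while mt-Co2 was higher, at 45900 and 56909. Gm13339 was higher in replicate 2 while mt-Nd2 was lower, at 260714 and 237495.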
